A study of Mus musculus with 12 samples.

Results

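Bhmt, Mat1a and Cdo1 encode liver enzymes of methionine and cysteine metabolism, and they are 3 of the 918 named genes with values on these arrays. They were taken by name, each from 1 cDNA clone spotted in duplicate, which gives 6 of the 4167 spots with a value. The genes were chosen by measured values of the same arrays, in earlier results: Bhmt by its ratios in Hx-null and HpHx-null liver, Mat1a by its ratio in HpHx-null and Cdo1 by its ratio in Hp-null. Those 4 ratios are therefore given as descriptions without a test. The remaining 5 ratios against wild-type, and 2 differences between nulls that hold none of the 4, were tested.

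RNA of pooled livers was compared on spotted cDNA arrays with 2 colours. The pools came from adult mice without hemopexin (Hx-null), without haptoglobin (Hp-null) or without both (HpHx-null), and from wild-type mice. All were littermates from Hp+/-Hx+/- parents on a mixed C57/BLJ6 X 129Sv background, at least 5 perfused mice went into a pool, and the nulls are constitutional rather than confined to hepatocytes. Each null pool was hybridised against the wild-type pool on 4 arrays, with its RNA in Cy5 on replicates 1 and 2 and in Cy3 on replicates 3 and 4. The 4 arrays of a genotype were treated as repeated measurements of 1 pair of pools, so a p-value measures the spread between arrays, which may be technical, and not the spread between mice. In pooled tissue, fewer hepatocytes and less RNA per hepatocyte cannot be told apart.

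Methionine is turned into the methyl donor S-adenosylmethionine by methionine adenosyltransferase, whose catalytic subunit in adult liver is the product of Mat1a. After the methyl group has been passed on, homocysteine remains. Betaine-homocysteine methyltransferase, the product of Bhmt, returns it to methionine with a methyl group from betaine, or transsulfuration turns it into cysteine. Cysteine dioxygenase, the product of Cdo1, oxidises cysteine on the route to taurine and sulfate, away from glutathione. All 3 transcripts are abundant in hepatocytes. The deleted genes encode plasma proteins made by the same cells: hemopexin binds free heme and haptoglobin binds free hemoglobin.

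Of the 3 genes, RefSeq's promoter table (GRCm38.p6) lists Bhmt. The 250 bases before its start, on the minus strand at chr13:93637759-93638008, are shown because nuclear receptor motifs are frequent near liver genes. Capitals mark AGGTCA, the half-site of many nuclear receptors, and CAAAGGTCA, the end of the direct repeat bound by HNF4-type receptors, both searched on either strand.
Bhmt promoter: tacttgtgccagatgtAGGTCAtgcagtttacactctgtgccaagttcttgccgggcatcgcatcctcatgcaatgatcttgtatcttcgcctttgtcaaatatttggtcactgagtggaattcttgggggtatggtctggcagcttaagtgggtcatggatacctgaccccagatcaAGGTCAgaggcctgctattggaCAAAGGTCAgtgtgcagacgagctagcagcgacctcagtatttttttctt
The window holds 3 matches of AGGTCA, of which 1 lies inside the single match of CAAAGGTCA. Of 32851 promoter windows of the same length, 14.0% hold AGGTCA and 0.426% hold CAAAGGTCA. The motifs were chosen after the sequence had been read, and a match describes letters only.

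Values are the deposited log ratios, taken as log2, with each array's median set to 0. An array held 3009 to 4165 values. The direction of the ratios is not settled. The null pool is channel 2 throughout, and a positive value stands for more transcript in that pool only if the table divides channel 2 by channel 1. In the opposite case every sign given here turns. A reading as Cy5 over Cy3 would turn replicates 3 and 4 only. Arrays of the same labelled dye correlated at 0.83 to 0.85 in Hx-null, but at -0.78 to -0.56 in Hp-null and at -0.65 to -0.25 in HpHx-null. The first component over 1162 clones, with the 3 genes left out, carried 72.0% of the sum of squares. Its sign divides the arrays into blocks of 6, with 2 arrays of each genotype in either block. The first block is made up of Hx-null replicates 1 and 2, Hp-null replicates 2 and 3, and HpHx-null replicates 1 and 4. It differs from the labelled dye on 4 arrays, and what it stands for is not recorded. The block was derived from these same values but is fitted as if known, so SE and p-values with it leave out its uncertainty. If the ratios of either block are turned, a ratio fitted with the block term does not stand for null against wild-type. Each ratio of the 3 enzymes is therefore given with the labelled dye as a term, with the block as a term, and with the arrays turned by the labelled dye.

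The ratios of all 3 enzymes were high on the arrays of the first block and low on those of the second, in each genotype. Bhmt ran from 0.90 to 1.85 on the 6 arrays of the first block, with a median of 1.33, and from -0.75 to -0.17 on 5 arrays of the second. Cdo1 ran from 1.14 to 1.76 on 6 arrays and from -0.63 to -0.37 on 4. Mat1a ran from 0.37 to 1.36 on 5 arrays and from -0.98 to 0.21 on 5. No array of one block overlapped the other for any of the 3 genes.

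**Figure D1:**
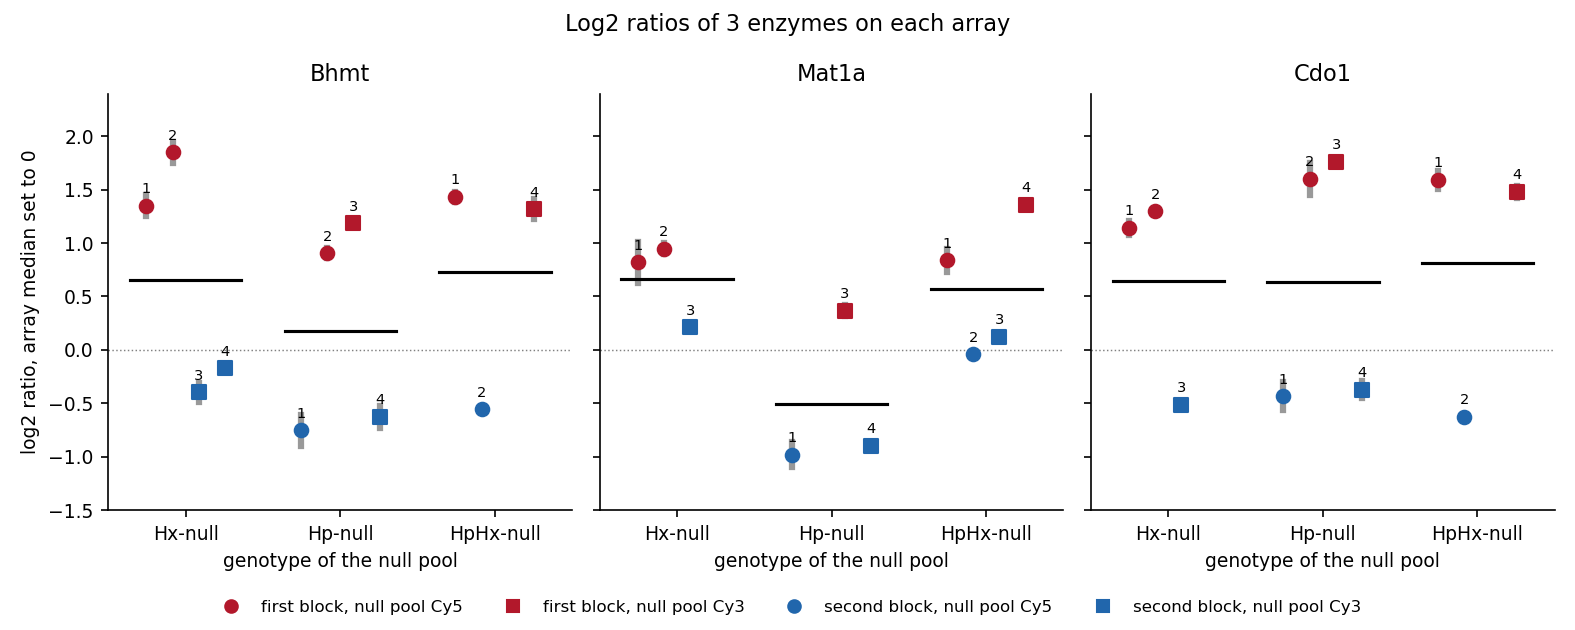
Log2 ratio (y axis, array median set to 0) of Bhmt, Mat1a and Cdo1 on each array, by genotype of the null pool. Points are means of duplicate spots, grey bars join the duplicates, numbers are replicates, colour is the array block, shape is the dye of the null pool and black lines are means. In every panel the first block lies above the second, whichever dye the null pool carried.

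Bhmt, the betaine-dependent methyltransferase, was measured on 11 of 12 arrays. In Hx-null its log2 ratios were 1.35, 1.85, -0.40 and -0.17 on replicates 1 to 4, a mean of 0.66 ± 1.11 (SD, n = 4 arrays). The positive pair carried the null pool in Cy5 and the negative pair in Cy3. In Hp-null the ratios were -0.75, 0.90, 1.18 and -0.63, a mean of 0.18 ± 1.01 (SD, n = 4 arrays). In HpHx-null they were 1.43, -0.56 and 1.32 on replicates 1, 2 and 4, a mean of 0.73 ± 1.12 (SD, n = 3 arrays), and replicate 3 held no value. The ranges of the 3 genotypes overlapped. The mean of the 2 Hp-null arrays was 1.04 within the first block and -0.69 within the second. The Hx-null and HpHx-null values chose the gene, so no order of the nulls is read from them.

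With the block as a term, the fitted Bhmt ratio was 0.66 (SE 0.09) in Hx-null, a 1.58-fold size, and 0.42 (SE 0.10) in HpHx-null, where the block term allows for the missing array. Both were among the ratios that chose the gene. With the labelled dye the same ratios were 0.66 (SE 0.50) and 0.66 (SE 0.59). With the arrays turned by the labelled dye the means were 0.94 in Hx-null and -0.15 in HpHx-null. The Hp-null ratio, which did not choose the gene, was 0.18 (SE 0.50, limma adjusted p = 0.999) with the labelled dye and 0.18 (SE 0.09, adjusted p = 0.307) with the block, where its 95% interval ran from -0.02 to 0.37. Turned by the labelled dye it was -0.10. The duplicate spots of Bhmt differed by a median of 0.18, less than the spread within a block but above the median of 0.09 over 2016 clones. A transcript of the paralogue Bhmt2 could hybridise to the same clone, and its share was not tested.

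Mat1a, the liver-type S-adenosylmethionine synthetase, had positive plain means in Hx-null and HpHx-null and a negative one in Hp-null. In Hx-null its log2 ratios were 0.82, 0.95 and 0.21 on replicates 1 to 3, a mean of 0.66 ± 0.39 (SD, n = 3 arrays). In Hp-null they were -0.98, 0.37 and -0.90 on replicates 1, 3 and 4, a mean of -0.50 ± 0.76 (SD, n = 3 arrays). In HpHx-null they were 0.84, -0.04, 0.12 and 1.36, a mean of 0.57 ± 0.65 (SD, n = 4 arrays). Hx-null was positive on all 3 arrays with a value, and Hp-null was negative on 2 of 3. The missing Hp-null array belongs to the first block and the missing Hx-null array to the second, which widens the gap between the plain means.

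The Mat1a difference, Hp-null minus Hx-null, was -0.82 (SE 0.17) with the block as a term and passed (limma adjusted p = 0.0435, 95% interval -1.20 to -0.45), a 1.77-fold size. Features are named genes, plus clones that carry no symbol or several, and 1.14% of them passed in that comparison. Within the first block the Hp-null value of 0.37 on 1 array lay 0.52 below the Hx-null mean of 0.88, and within the second block the difference was -1.15, so the sign was the same in both. The direction of the difference was also negative with the labelled dye, at -1.22 (SE 0.51), where it did not pass (adjusted p = 0.997, against 0.595% of features that passed). The sign depends on the direction of the ratios: with arrays turned by the labelled dye the difference was -0.67, and with arrays turned by the block, chosen after seeing the data, it was 0.23. With the block term the call was lost without replicate 1, 2 or 3 of Hx-null, 1 or 4 of Hp-null, or 2 of HpHx-null, each left out alone. The adjusted p then ran from 0.0545 to 0.289, and the difference stayed between -0.997 and -0.62 over all 12 arrays left out in turn. Hx-null replicate 4 and Hp-null replicate 2 hold no Mat1a value, so leaving them out does not probe the difference. Of the Hx-null and Hp-null arrays with a value, only Hp-null replicate 3 could be left out with the call kept.

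Against wild-type, Mat1a had a fitted ratio of 0.49 (SE 0.12, limma adjusted p = 0.0618) in Hx-null and -0.33 (SE 0.12, adjusted p = 0.160) in Hp-null with the block term, and neither passed. With an array left out the Hx-null ratio ran from 0.31 (limma adjusted p = 0.483, without Hx-null replicate 3) to 0.58 and did not pass in 10 of 12 fits. It passed without Hp-null replicate 3 (0.51, adjusted p = 0.0399) or HpHx-null replicate 4 (0.51, adjusted p = 0.0438). With the labelled dye the ratios were 0.69 (SE 0.35, adjusted p = 0.9998) and -0.53 (SE 0.35, adjusted p = 0.999). The HpHx-null ratio that chose the gene was 0.57 with either term (SE 0.10 with the block, 0.30 with the labelled dye). Turned by the labelled dye, the means were 0.52 for Hx-null, -0.15 for Hp-null and -0.17 for HpHx-null.

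Cdo1, cysteine dioxygenase, was measured on 10 arrays. In Hp-null its log2 ratios were -0.43, 1.60, 1.76 and -0.37, a mean of 0.64 ± 1.20 (SD, n = 4 arrays). In Hx-null they were 1.14, 1.30 and -0.51 on replicates 1 to 3, a mean of 0.64 ± 1.002 (SD, n = 3 arrays). In HpHx-null they were 1.59, -0.63 and 1.48 on replicates 1, 2 and 4, a mean of 0.81 ± 1.25 (SD, n = 3 arrays). Within the first block the Hp-null and HpHx-null arrays, from 1.48 to 1.76, lay above both Hx-null arrays. The Hp-null values chose the gene, so no order of the nulls is read from them. Within the second block the 4 arrays with a value spanned only -0.63 to -0.37.

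With the block as a term, Cdo1 had a ratio of 0.64 (SE 0.08) in Hp-null, the value that chose it. In HpHx-null, which did not choose it, the ratio was 0.48 (SE 0.09) and passed (limma adjusted p = 0.0117, 95% interval 0.28 to 0.68), a 1.39-fold size, in a comparison where 5.38% of features passed. This comparison shares the wild-type pool with the one that chose the gene. The call was lost without HpHx-null replicate 1 (ratio 0.43, adjusted p = 0.0652) or 4 (0.48, adjusted p = 0.0568). With the labelled dye the ratio was 0.79 (SE 0.65) and did not pass (adjusted p = 0.999), and turned by the labelled dye it was -0.17. In Hx-null the Cdo1 ratio was 0.31 (SE 0.09, adjusted p = 0.114) with the block, 0.61 (SE 0.65, adjusted p = 0.9998) with the labelled dye and 0.98 turned by it. With the block it was 0.16 (limma adjusted p = 0.602) without Hx-null replicate 3, and it did not pass in any of the 12 fits with an array left out. Turned by the labelled dye, the Hp-null mean was -0.05. The difference HpHx-null minus Hx-null was 0.17 with either term. It did not pass with the block (SE 0.13, limma adjusted p = 0.996, 95% interval -0.10 to 0.45, against 0.181% of features that passed) or with the labelled dye (SE 0.91, adjusted p = 0.999). In that labelled-dye comparison 0 features (0%) passed by limma and 16 had an unadjusted p under 0.05.

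**Figure D2:**
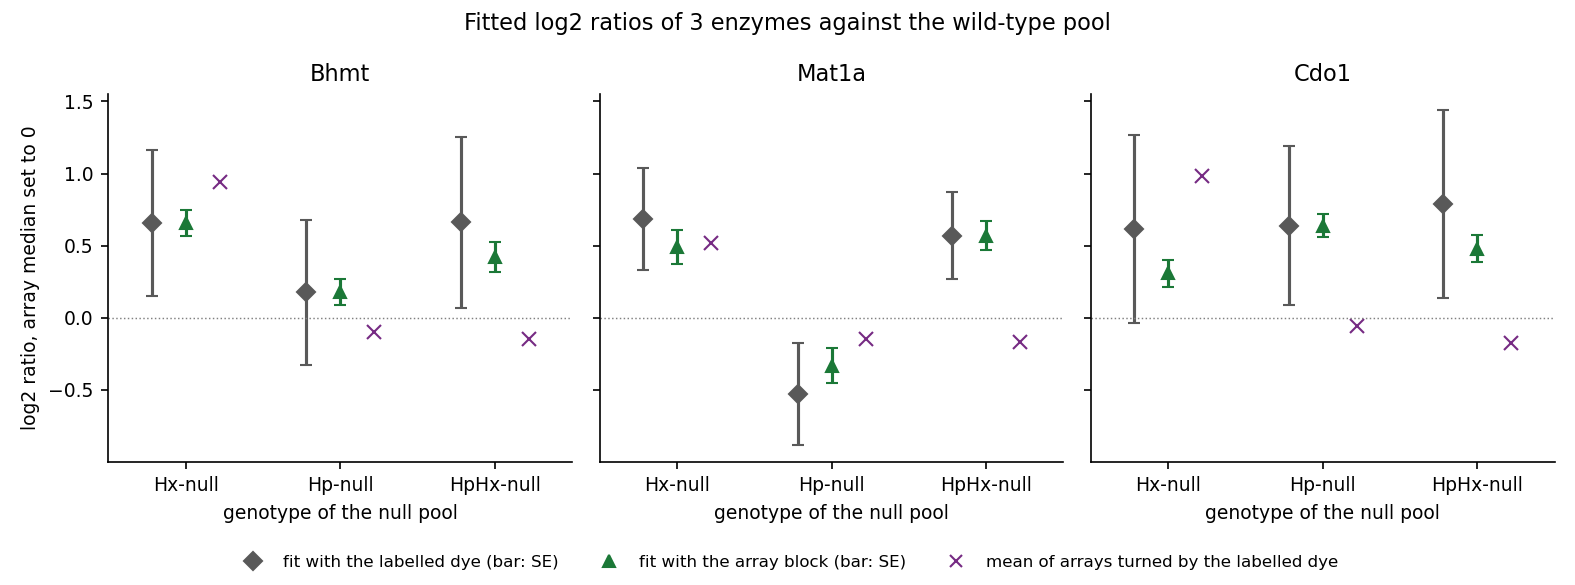
Fitted log2 ratio against the wild-type pool (y axis) of the 3 enzymes in each null, with the labelled dye or the array block as a term (bars are SE), and the mean with arrays turned by the labelled dye. The SE of Bhmt in Hx-null was 0.50 with the dye and 0.09 with the block, and for Hp-null and HpHx-null the turned means of all 3 genes lie between -0.17 and -0.05.

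The counts over all features give the background for these calls. With the labelled dye 12 of 1865 features (0.643%) passed in Hx-null, and neither Mat1a nor Cdo1, the enzymes tested there, was among them. By limma 0 of 2017 (0%) passed for Hp-null and 0 of 1711 (0%) for HpHx-null, with 49 and 99 at an unadjusted p under 0.05, and the unmoderated test also called 0 in both. With the block term 39 (2.09%), 56 (2.78%) and 92 (5.38%) passed in Hx-null, Hp-null and HpHx-null. Of the 5 ratios of the enzymes tested against wild-type, 1 passed with the block term, Cdo1 in HpHx-null, and none with the labelled dye.

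The genes were chosen by ratios against wild-type and not by the contrast between the blocks. That contrast still rests on the same arrays, including those that chose the genes, so its ranks are descriptions. As a fitted difference, first block minus second, it was 2.005 for Cdo1, 1.84 for Bhmt and 1.02 for Mat1a on the log2 scale. The median size over 1646 features was 0.47, and the size was smaller than that of Cdo1 in 97.9% of features, than that of Bhmt in 95.6% and than that of Mat1a in 76.3%. Differences above 1 were found in 363 features (22.1%) and below -1 in 36. The enzymes shared a difference above 1 with the measured plasma protein genes of hepatocytes, but not with every measured enzyme of the lists. The differences were 0.10 for Tdo2, -0.30 for Gpt, 0.23 for Gldc and -0.31 for Shmt2. Glud1 and Mat2b, with too few arrays for this fit, were higher in the first block. Of 20 hepatocyte markers 4 were measured, and their differences were 1.51 for Alb, 1.90 for Apoa1, 1.28 for Ttr and 2.72 for Serpina1e. Alb and Apoa1 were positive on 6 of 6 arrays of the first block and negative on 6 of 6 of the second. The measured markers of other cells differed less between blocks: -0.42 for Fcer1g and -0.28 for Fcgr1 of macrophages, and 0.03 for Ltf of neutrophils. No marker of the erythroid, lymphocyte, endothelial, stellate or cholangiocyte lists had a value under a single symbol. Against wild-type, with the block term, Ttr had a ratio of -0.55 in Hp-null (limma adjusted p = 0.0383), where Serpina1e had 0.53 (adjusted p = 0.137). In HpHx-null Serpina1e had 1.37 (limma adjusted p = 0.00346) and Ttr 0.05 (adjusted p = 0.934). Of the macrophage markers in HpHx-null, Fcgr1 had 0.52 (limma adjusted p = 0.0151) and Fcer1g -0.08 (adjusted p = 0.899). Alb and Apoa1 did not pass, at -0.01 and -0.17 in Hp-null and at 0.41 and 0.19 in HpHx-null. With the labelled dye no marker passed in any null, beside 0.643%, 0% and 0% of all features in Hx-null, Hp-null and HpHx-null. The markers called with the block changed sign when the arrays were turned by the labelled dye. Their turned means were 0.02 for Ttr in Hp-null, and -0.26 for Serpina1e and -0.19 for Fcgr1 in HpHx-null. The part of the block or of hepatocyte content in the ratios of the enzymes was not tested.

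**Figure D3:**
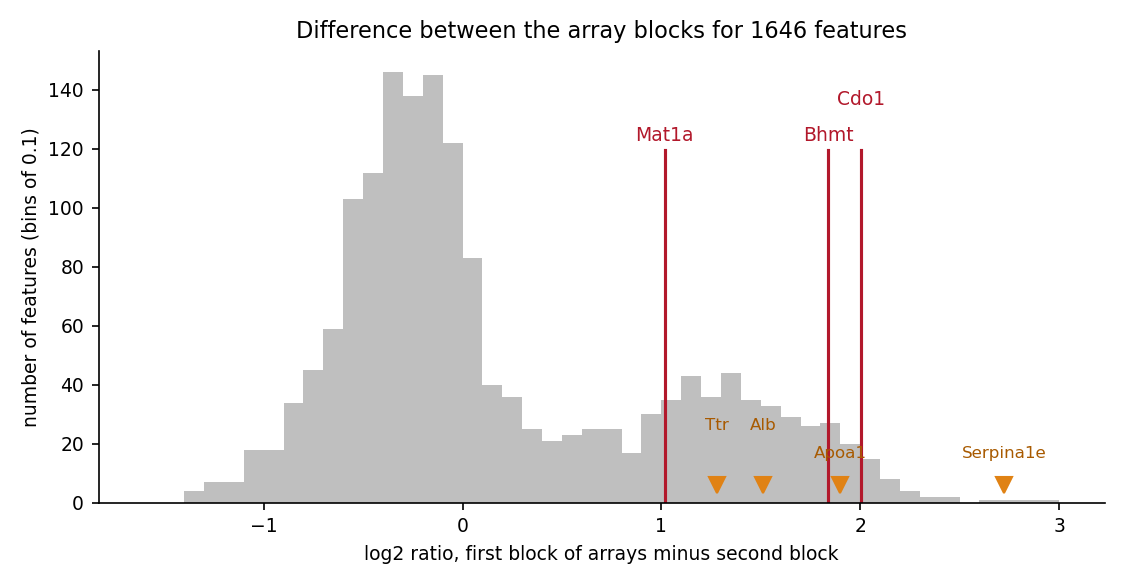
Number of features (y axis, bins of 0.1) by the log2 difference between the array blocks, first minus second (x axis), over 1646 features. Red lines mark the 3 enzymes and orange triangles the 4 hepatocyte markers, all of which lie at 1.02 or above, while the largest group of features lies just below 0.

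Across arrays, with the block left in, the ratios of the enzymes moved together. Bhmt and Cdo1 had the same sign on 10 of 10 shared arrays (Pearson r = 0.93, Spearman rho = 0.55), Bhmt and Mat1a on 8 of 9 (r = 0.87, rho = 0.90) and Mat1a and Cdo1 on 8 of 9 (r = 0.78, rho = 0.65). These points share arrays, pools and the wild-type reference, and the Pearson values include the separation of the blocks. With block means subtracted, r was 0.50 for Bhmt and Mat1a, -0.50 for Bhmt and Cdo1 and -0.46 for Mat1a and Cdo1.

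Among 546 named genes with values on all arrays, those whose ratios ran most like Bhmt were Agbl5, Gapdh and Eef1a1 (r = 0.99, 0.98 and 0.98 over 11 arrays). Those most like Mat1a were Ftl1, Selenop and Atp5g1 (r = 0.96, 0.95 and 0.93 over 10 arrays), and most like Cdo1 were Hcfc1, Cfdp1 and Stip1 (r = 0.98 for each over 10 arrays). With block means subtracted the nearest were Emc8, Agbl5 and Selenow for Bhmt (r = 0.91, 0.87 and 0.87), Ftl1, Zfp612 and Agbl5 for Mat1a (r = 0.90, 0.88 and 0.85) and Laptm4b, Rpl37 and H2az1 for Cdo1 (r = 0.86, 0.86 and 0.83). Ftl1, the ferritin light chain, was nearest to Mat1a on both scales.

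Of the other 60 genes in the lists for the methionine cycle, folate and choline supply, transsulfuration and taurine, and glutathione, 27 were annotated and 4 had values. With the 26 genes listed for amino acid breakdown, 7 were measured. With the labelled dye none passed, of 5 tested for Hx-null, 7 for Hp-null and 5 for HpHx-null, beside 0.643%, 0% and 0% of all features. With the block term the counts were 0 of 5, 0 of 7 and 1 of 5, beside 2.09%, 2.78% and 5.38% of all features. Their median log2 ratio with the block term was -0.06 for Hx-null, 0.01 for Hp-null and -0.03 for HpHx-null, beside -0.02, -0.01 and -0.03 over all features tested.

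These genes split by block unlike each other. Mat2b, the regulatory subunit that partners the extrahepatic synthetase, was positive on 6 of 6 arrays of the first block, from 0.17 to 0.73, and stood at -0.76 and -1.10 on the only arrays of the second block with a value, both Hp-null. Its Hp-null ratio was -0.18 (SE 0.10, limma adjusted p = 0.342) with the block term. Csad makes hypotaurine, the precursor of taurine, from the product of cysteine dioxygenase. Its block mean was -0.07 ± 0.24 (SD, n = 5 arrays) in the first block and 0.34 ± 0.24 (SD, n = 5 arrays) in the second. This order is opposite to that of Cdo1, but the ranges overlapped, at -0.39 to 0.27 and 0.005 to 0.61. It was also the commoner order, since 41.8% of 1646 features had a positive difference, first block minus second. The Csad ratio was 0.10 (SE 0.09, limma adjusted p = 0.686) in Hx-null and 0.01 (SE 0.09, adjusted p = 0.958) in Hp-null with the block term.

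Shmt2, the mitochondrial serine hydroxymethyltransferase, had fitted ratios of -0.16 (limma adjusted p = 0.301), 0.05 (adjusted p = 0.721) and -0.03 (adjusted p = 0.927) in Hx-null, Hp-null and HpHx-null with the block term. Gldc, of glycine cleavage, had -0.13, 0.01 and -0.03, and the amino acid enzymes Tdo2 and Gpt lay between -0.09 and 0.19. Glud1, glutamate dehydrogenase, resembled the trio. It ran from 0.52 to 1.16 on 5 arrays of the first block and from -0.41 to 0.07 on 4 of the second. Its HpHx-null ratio, from 3 arrays, was 0.43 (SE 0.11, limma adjusted p = 0.0498) with the block term and 0.63 (adjusted p = 0.999) with the labelled dye. Its HpHx-null mean turned by the labelled dye was -0.15. The call with the block term was kept in only 2 of 12 fits with an array left out, those without Hp-null replicate 2 (ratio 0.41) or 3 (0.44). In the other 10 fits the ratio lay between 0.36 and 0.56.

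**Figure D4:**
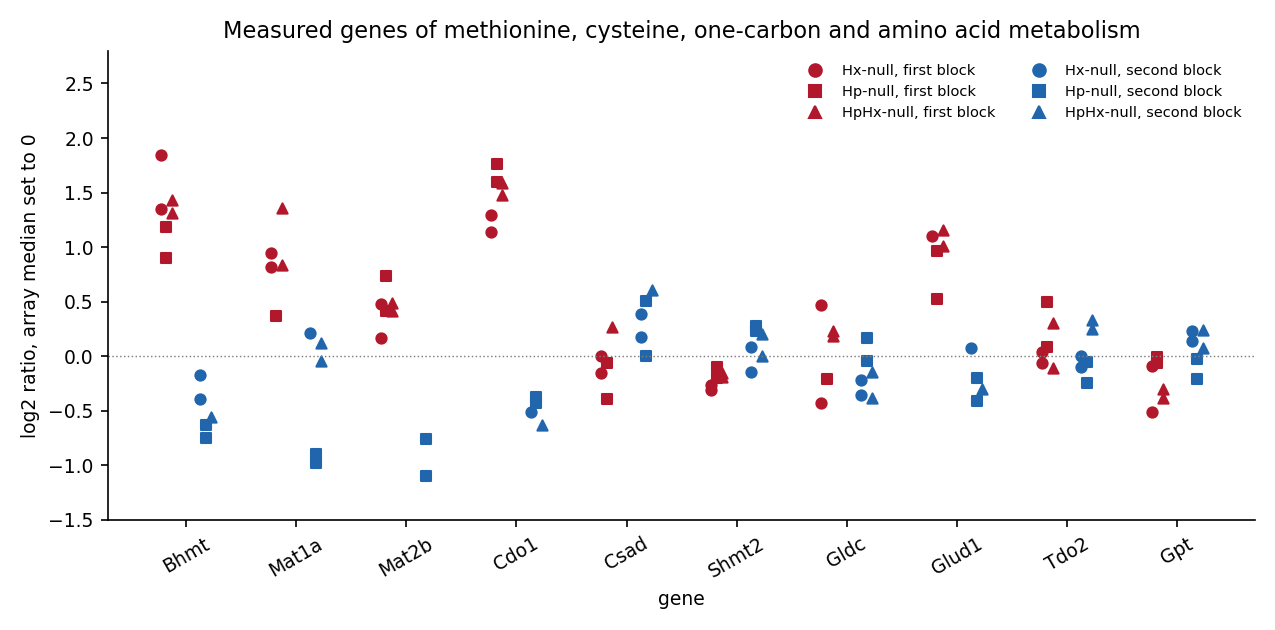
Log2 ratio (y axis, array median set to 0) of every measured gene of the pathway and amino acid lists on each array. Shape is the genotype of the null pool and colour the array block. Bhmt, Mat1a, Mat2b, Cdo1 and Glud1 are higher on every array of the first block than on any of the second, and Shmt2, Gldc, Csad, Tdo2 and Gpt lie between -0.51 and 0.61.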

How the data were processed

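The authors deposited log ratios, read as log2, for 4167 of the 31200 spots on 12 arrays. Not given in the sources used here are their base, direction, normalization and filter on weak spots. Each array was centred on its median, duplicate spots were averaged, and clones of a gene were averaged, which gave 2052 features. Gene names rest on an inferred numbering in which spot k takes the annotation of spot 31201 minus k. By it 205 of 3476 pairs of clones of the same gene were both measured, against 63 by equal spot number, and the 3 enzymes had values on 6 of 6 spots, against 0 of 6. Models were fitted with limma 3.58.1 in R 4.3.3 (lmFit, robust eBayes) to all arrays at once, with a coefficient per genotype and the labelled dye as a term, Benjamini-Hochberg adjustment over all features and a threshold of 0.05. A feature needed values on 3 of 4 arrays of each genotype compared, or 2 with an array left out. The code was tested on simulated data with dye effects that followed the labelled dye and with the labelled dye as the term. Fits with the block were not simulated. The genes and lists, and the alternatives, were chosen with earlier results of these data known. Named are the 3 enzymes, the 3 genes most like each and the measured genes of the lists. The number of arrays limits precision.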

Additional observations from a re-analysis of the deposited data

Results flagged for a closer look

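Mat1a differed between Hp-null and Hx-null by -0.82 on the log2 scale when the array block was a term (limma adjusted p = 0.0435). It was picked out because the effects of these nulls against the same wild-type pool differed by a test of the difference itself. The ratio was 0.49 (SE 0.12) in Hx-null and -0.33 (SE 0.12) in Hp-null, each from 3 arrays. With the arrays turned by the block the difference was 0.23, of the opposite sign. Among the 3 enzymes and the measured genes of the pathway and marker lists, where a genotype had values on all 4 arrays, no array was set apart from the other 3 by Dixon's criterion. For genes that split by block, such as the enzymes, the 4 arrays form a high and a low pair. The criterion could not set 1 array apart there.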

How the results depend on the processing

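With the block term in place of the labelled dye, the count of features past the threshold moved from 12 to 39 in Hx-null, from 0 to 56 in Hp-null and from 0 to 92 in HpHx-null, and Cdo1 in HpHx-null (0.48) and the Mat1a difference between Hp-null and Hx-null (-0.82) passed. The count in Hx-null was 0 with arrays turned by the labelled dyes and with features measured on all arrays, 7 with values as deposited and 5 with quantile scaling. In HpHx-null it was 7 without a dye term and 7 with features measured on all arrays. With an array left out the counts ran from 0 to 13 in Hx-null, with 0 without replicate 1, 2 or 3 of Hx-null, and from 0 to 2 in HpHx-null. Turned by the labelled dyes, Bhmt in Hp-null (-0.10) and HpHx-null (-0.15), Mat1a in HpHx-null (-0.17), Cdo1 in Hp-null (-0.05) and HpHx-null (-0.17) and the Cdo1 difference HpHx-null minus Hx-null (-1.16) changed sign. Turned by the block, an alternative chosen after seeing the data, Mat1a in Hp-null (0.75) and the Mat1a difference Hp-null minus Hx-null (0.23, a difference of means with no test) changed sign, Bhmt in Hp-null moved to 0.87 and Cdo1 in HpHx-null to 1.23. With an array left out Bhmt in Hp-null ran from -0.29 to 0.61 and the Cdo1 difference from -0.56 to 0.98. The cause was not tested. Deviations of same-numbered arrays from their genotype means correlated at -0.86 to 0.85, and 4 of 12 pairs exceeded 0.1. These deviations still hold the block, which divides arrays of the same number. They therefore cannot show whether the numbers pair the arrays. With the replicate block 0 features passed in any null, and Mat1a in Hp-null minus Hx-null was -1.31. Each gene has 1 clone, so no clone could be set against another, and by equal spot number none of the 3 had a value.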
